A study of Homo sapiens with 12 samples.

Results

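Cells given both Wee1 inhibitor II and 17-AAG were compared with cells given 17-AAG alone, to describe what the Wee1 inhibitor adds to inhibition of Hsp90. The comparison used 6 of the 12 arrays of the study, 3 labelled with both drugs and 3 labelled with 17-AAG alone, and no control array. Of 19775 genes measured, the 8672 whose mean signal reached 100 in at least 1 of these 2 groups were described. By its title, the study asked whether blocking Wee1 sensitises prostate cancer cells to inhibition of Hsp90. The cells are labelled PC3, a prostate cancer line, and were grown in DMEM with serum. In the group with both drugs, Wee1 inhibitor II was present at 2.5 µM from the first day and 17-AAG at 40 nM was added 24 h later. The group with 17-AAG alone had 17-AAG at the same dose and time. By the protocol, vehicle stood in for drug in control cells, and cells were taken 48 h after 17-AAG, so the inhibitor had been present for longer than 17-AAG. Nothing in the labels says that the 3 replicates of a group were separate cultures, so the p-values here reflect no more than the spread among these arrays, and that spread may be technical.

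Wee1 is a kinase that phosphorylates CDK1 and so holds the CDK1-cyclin B complex inactive until a cell is ready for mitosis, and it also restrains CDK2 during DNA replication. Hsp90 is a chaperone on which a large set of kinases and receptors depends for folding, Wee1 among them. Hsp90 inhibitors such as 17-AAG are known to release the transcription factor HSF1, which then drives genes of Hsp70, Hsp40 and other chaperones. Genes of DNA replication are driven mainly by E2F factors, and many genes of mitosis by the MYBL2-FOXM1 complex acting through the cell cycle homology region of their promoters.

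The labels were set against markers first. On the 6 arrays, 15 of 16 measured pigment cell markers had a signal of 100 or more, with a summed signal of 59580 to 64810 with 17-AAG and 63700 to 64760 with both drugs. Only 2 of 12 measured prostate epithelial markers reached 100, with sums of 929 to 993.7 and 1373 to 1483. CTNNA1 and STAT3, which PC3 cells are known to have lost, were both expressed, with sums of 3533 to 3631 and 3468 to 3679. These data go against the label, so the cells are called here the cells labelled PC3. Of the fibroblast markers only LUM and VIM reached 100, and no blood cell or endothelial marker did.

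The check on 17-AAG also went against its label, though it lacked the Hsp70 genes HSPA1A and HSPA1B, which were not measured. Of 38 heat shock and chaperone genes with a signal of 100 or more, 3 were higher and 21 lower on the arrays labelled 17-AAG than on the 2 control arrays used, where 25.2% of all 8672 genes were higher and 19.7% lower. The gap between the 3-prime and 5-prime ends of ACTB, a sign of RNA quality, was 0.67 and 0.71 (log2) on the control arrays and 0.91 to 1.05 on those labelled 17-AAG, and its part in this difference was not tested. DNAJB1, an Hsp40 co-chaperone and a known HSF1 target, had a mean signal of 1192 on the control arrays, 725 with Wee1 inhibitor II alone, 510 on the arrays labelled 17-AAG and 889 with both drugs. Whether the labels of these groups are right was not tested, and every direction below is against the arrays labelled 17-AAG.

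The 6 arrays were alike in quality. Pearson's r of log2 signals was taken across the 19775 genes, each read from its brightest probe set. It was 0.955 to 0.957 within the group labelled 17-AAG and 0.952 to 0.954 within the group with both drugs. Between the groups it was 0.943 to 0.948. The ACTB gap was 0.96 ± 0.08 with 17-AAG and 0.96 ± 0.05 with both drugs on the log2 scale (SD, n = 3 each). The median signal of an array was 17.7 to 19.8 with 17-AAG and 20.5 to 23.1 with both drugs. The median SD between replicates was 0.08 (log2) in the brightest of 5 signal classes, 0.14 in the class that starts at 100 and 0.98 below 16.

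Adding the Wee1 inhibitor was followed by differences across a large share of the genes with a signal of 100 or more. In limma's moderated test with Benjamini-Hochberg adjustment over all genes, 4152 of 8672 genes (47.9%) passed an adjusted p of 0.05. Of these, 2222 (25.6% of genes with signal of 100 or more) rose with both drugs and 1930 (22.3%) fell. The signals of the 2 groups did not overlap for 5314 of the 8672 genes (61.3%), and the 12 largest rises and falls were ranked among such genes, so a lack of overlap says nothing particular of a gene named here. Large changes were mostly falls: 292 genes fell and 185 rose by at least 2-fold. The 12 largest falls included the replication genes E2F8, RRM2 and TYMS and the 12 largest rises the histone genes H2AC6, H2BC12 and H2BC21. In a bulk sample, fewer cells of a type and less RNA per cell cannot be told apart.

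The counts of small changes depend on the setting. The median log2 difference was 0.04 over genes with signal of 100 or more and 0.10 over all genes. When each array was centred on its median signal, 707 genes rose and 2717 fell, so that the rises made up 20.6% of the calls in place of 53.5%; quantile normalisation gave 2124 and 1989. With 1 prior variance for all genes in place of a prior that follows signal, 1061 rose and 1018 fell. Small rises are therefore described below with centring named where it ends the call.

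The limit of 100 let 469 genes in only through the group with both drugs and 261 only through the group with 17-AAG. By construction all 322 calls among the first were rises and all 177 among the second were falls, and no count over them is read as a result. For lists with such members, the count over members that reached 100 in both groups is given too; over all 7942 such genes, 1900 rose and 1753 fell. Just inside the limit lay DLX2 (higher group mean signal 100.04, log2 difference -0.47), SIK2 (100.15, 0.67) and PCDHB8 (100.23, 0.30). Just outside lay PRAG1 (99.995, 0.74), RASSF1 (99.988, -0.35) and GALNT10 (99.928, -0.01).

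**Figure D1:**
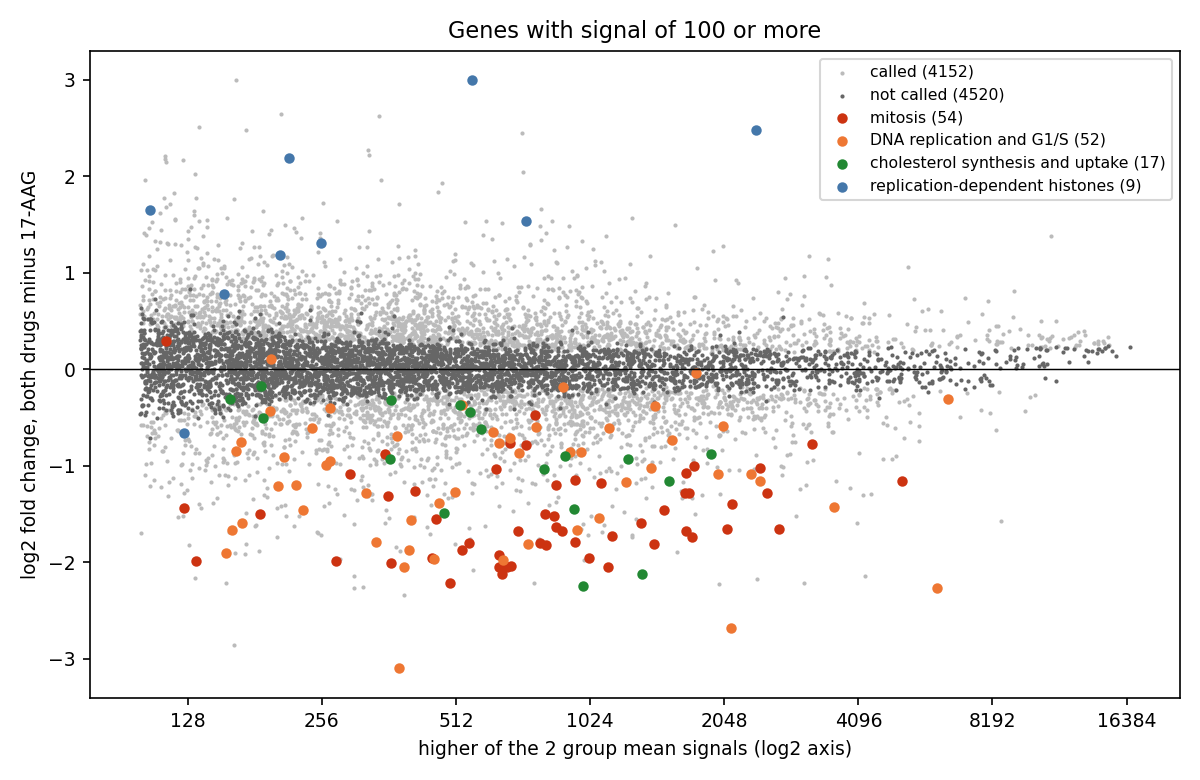
Each point is a gene with a mean signal of 100 or more. The horizontal axis is the higher of its 2 group means (signal, log2 axis) and the vertical axis its log2 fold change, both drugs minus 17-AAG. Mitosis genes (54, red) and replication genes (52, orange) lie almost all below 0, as do cholesterol genes (17, green), and 8 of the 9 histone genes (blue) above 0.

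The kinase that the inhibitor targets, its substrate and their partners were lower with both drugs. WEE1 itself had signals of 849, 737 and 831 on the 3 arrays labelled 17-AAG and 362, 401 and 371 with both drugs. WEE1 fell by 1.09 ± 0.08 on the log2 scale (SE, adjusted p = 2.1e-06). CDK1, the kinase that drives mitosis, fell further, from 4040, 4500 and 4218 to 1102, 965 and 837, a log2 change of -2.14 ± 0.09 (adjusted p = 5.6e-08). CCNB1, the cyclin that activates CDK1, fell from 1847, 1985 and 1793 to 999, 935 and 931 (log2 change -0.97 ± 0.06, adjusted p = 1.2e-06). Relative to 17-AAG alone, the signal of CDK1 was 0.226-fold, that of WEE1 0.470-fold and that of CCNB1 0.510-fold.

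Across the list of Wee1, CDK1 and G2 checkpoint genes, 17 of the 22 members with signal of 100 or more fell and 2 rose, with a median of -0.90 against 0.04 over all such genes. Over the 19 that reached 100 in both groups, 15 fell and 1 rose. PKMYT1, the membrane-bound kinase that shares Wee1's task, fell from 251 to 110 in mean signal, and CCNA2, the cyclin of S phase and G2, fell from 700 to 294. CDC25C, the phosphatase that removes the mark Wee1 places on CDK1, fell from 133 to 30. CHEK1, the kinase that halts the cycle after replication damage, fell from 181 to 59. ATM and CDK2 did not pass the test, with log2 differences of -0.20 and -0.16. The risers were ATR at 0.26 and BTRC, a ubiquitin ligase subunit that helps degrade Wee1, at 0.70. Both calls were lost on centring.

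**Figure D2:**
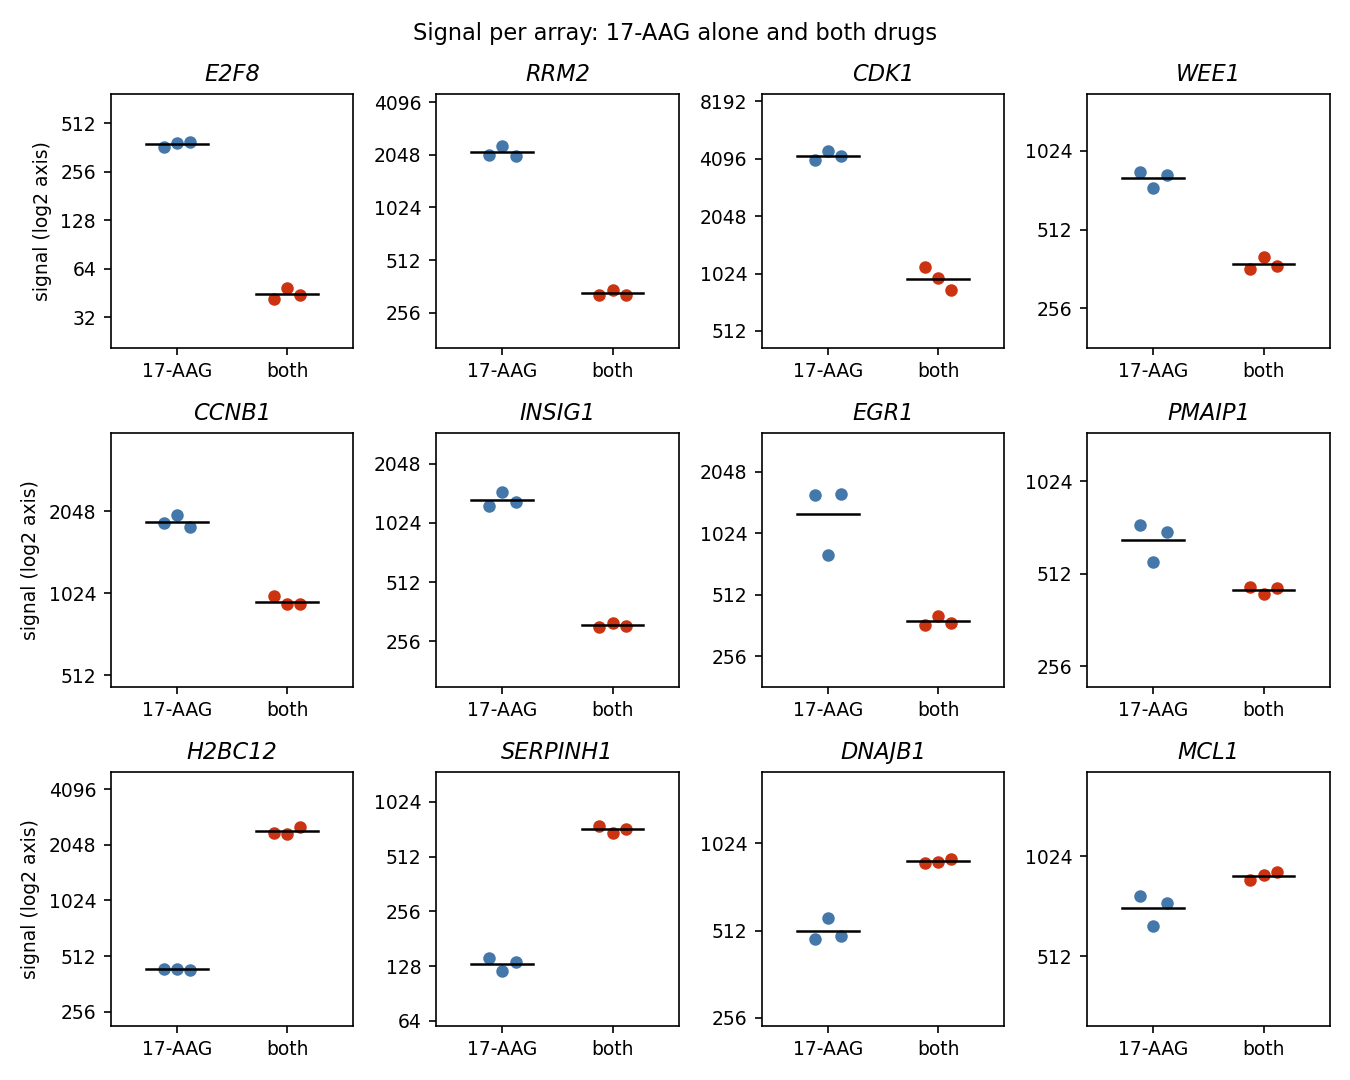
Signal on each of the 3 arrays labelled 17-AAG (blue) and the 3 with both drugs (red) for 12 genes, on log2 axes of their own; the line is the geometric mean of the group. The arrays of EGR1 labelled 17-AAG spread from 806 to 1599.

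Genes of DNA replication fell almost without exception. Of 52 members with signal of 100 or more, 49 fell and none rose, with a median of -1.06. Over the 42 that reached 100 in both groups, 39 fell, with a median of -0.89. The other 3, RFC5 (-0.19), RPA1 (-0.04) and CCNE1 (0.10), did not pass the test. E2F8, a repressor of the E2F family that is itself an E2F target, had signals of 368, 387 and 393 with 17-AAG and 41.4, 48.4 and 44.2 with both drugs. It fell by 3.10 ± 0.11 on the log2 scale (adjusted p = 2.8e-08). This was the largest fall of any gene named by rank, and the group with both drugs lay below the limit of 100 on every array.

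RRM2, the regulated subunit of the enzyme that makes deoxyribonucleotides, fell from 2055, 2296 and 2020 to 323, 343 and 323 (log2 change -2.69 ± 0.07, adjusted p = 3.5e-09). TYMS, which makes thymidylate, fell from 5674, 6814 and 6030 to 1287, 1202 and 1346 (-2.27 ± 0.08). PRIM1, the catalytic subunit of primase, fell from 742 to 211.

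The loading and firing machinery moved with them. All 6 MCM2-7 helicase subunits on the list fell, from -0.59 for MCM6 to -1.54 for MCM7, as did the helicase partners CDC45 (-1.97) and GINS1 (-1.97). CCNE2, a cyclin that starts S phase, fell from 402 to 110 (-1.87 ± 0.09), whereas CCNE1 had signals of 184 and 197. The log2 change of the clamp PCNA was -1.09 and that of the polymerase subunit POLE -1.67.

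Mitosis genes showed the lowest median of the 36 lists, -1.57, with 53 of 54 members lower and none higher. All 48 that reached 100 in both groups fell. NCAPG, a condensin subunit, fell from 1178, 1076 and 1114 to 272, 264 and 278 (log2 change -2.05 ± 0.07, adjusted p = 2.3e-08). PRC1, which bundles microtubules between the separating chromosomes, fell from 2039, 2182 and 2021 to 662, 640 and 671 (-1.66 ± 0.06). The kinetochore genes NDC80 and NUF2 fell, with log2 changes of -1.80 and -1.82. The regulators of these genes fell as well: MYBL2 from 302 to 62.9 in mean signal and FOXM1 from 367 to 91. The member that did not pass was INCENP, at 0.29.

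Other cell cycle genes were among the 12 largest falls. CDKN3, a phosphatase acting on CDK2, fell from 1998 to 427, PBK, a mitotic kinase, from 3100 to 669, and DIAPH3, a formin of the actin ring, from 767 to 165. CENPM, of the inner kinetochore, fell from 392 to 77.6, and the repair enzyme NEIL3 from 156 to 33.5. The long noncoding RNA LINC02915 fell from 163 to 22.5.

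Homologous recombination and Fanconi genes fell in 14 of 21 cases and rose in none, with a median of -0.87. Over the 12 that reached 100 in both groups, 6 fell, with a median of -0.31. EXO1, the nuclease that resects broken ends, fell from 316 to 65.9. FANCI, of the complex that marks crosslinked DNA, fell from 974, 1009 and 978 to 324, 337 and 313 (-1.60 ± 0.06), and BRCA1 fell from 830 to 313 in mean signal. FANCL and PALB2 were level between the groups, with log2 differences of 0.00 for each.

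Histone genes moved the other way. Of 9 replication-dependent histone genes with signal of 100 or more, 8 rose and 1 fell, with a median of 1.53. Of these, 6 reached 100 in 1 group only, and the other 3, H2BC12, H1-2 and H2BC6, all rose. H2BC12 was nearly constant with 17-AAG, at 434, 434 and 430, and rose to 2360, 2344 and 2550 with both drugs (log2 change 2.48 ± 0.06, adjusted p = 3.5e-09). H2AC6 rose from 76.6, 69.8 and 63.5 to 505, 607 and 559 (2.99 ± 0.11), and H2BC21 from 47.4 to 216 in mean signal. The exception was H1-3, which fell from 126 to 79 (-0.66 ± 0.17). SLBP, the protein that binds the stem-loop ending most histone messages, fell by 0.38. Histone messages normally lack a poly(A) tail and the labelling here was of the 3-prime kind, and histone genes have near-identical copies, so which copy a probe set reads is uncertain.

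The promoter sequences of these groups of genes were compared with those of all genes. RefSeq promoters (GRCh38.p14, 250 bases before to 50 after the start) were at hand for 7306 of the 8672 genes. Of 46 mitosis genes with a promoter, 78.3% held the cell cycle homology region (searched as TTTGAA on either strand) and 76.1% held a CCAAT box (CCAAT on either strand), against 9.98% and 38.2% of all 7306. Both were present in 58.7% of mitosis promoters and 4.38% of all. Of 44 replication genes, 27.3% held an E2F site (TTTGGCGC or TTTCGCGC on either strand) against 2.12% of all, and 4.55% held the cell cycle homology region. All 9 histone promoters held a CCAAT box. Of 19 Hsp70, Hsp40 and small heat shock genes, 31.6% held a heat shock element (GAANNTTC) against 4.48% of all. These matches are descriptions of the letters and not of binding.

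The following sequences show such matches in genes described here, each the 250 bases before the start, 5′ to 3′ on the gene's own strand. In the first 5, capitals mark matches of the CCAAT box, the cell cycle homology region and the E2F site on either strand, and in SERPINH1 only the heat shock element. CDK1 lies at chr10:60778081-60778330 (plus strand), PRC1 at chr15:90994536-90994785 (minus), RRM2 at chr2:10122489-10122738 (plus), POLE at chr12:132687343-132687592 (minus), H2BC12 at chr6:27146859-27147108 (minus) and SERPINH1 at chr11:75562003-75562252 (plus), all in GRCh38.p14.
CDK1: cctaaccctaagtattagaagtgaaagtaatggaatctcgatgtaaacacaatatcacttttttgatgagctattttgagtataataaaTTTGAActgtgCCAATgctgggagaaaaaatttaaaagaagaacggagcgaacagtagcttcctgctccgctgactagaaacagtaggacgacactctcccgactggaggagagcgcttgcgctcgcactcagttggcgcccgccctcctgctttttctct
PRC1: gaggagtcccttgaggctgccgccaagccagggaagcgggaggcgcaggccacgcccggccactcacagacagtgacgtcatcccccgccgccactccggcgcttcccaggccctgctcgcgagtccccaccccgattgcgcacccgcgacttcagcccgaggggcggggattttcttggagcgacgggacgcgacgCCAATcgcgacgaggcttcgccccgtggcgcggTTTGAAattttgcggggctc
RRM2: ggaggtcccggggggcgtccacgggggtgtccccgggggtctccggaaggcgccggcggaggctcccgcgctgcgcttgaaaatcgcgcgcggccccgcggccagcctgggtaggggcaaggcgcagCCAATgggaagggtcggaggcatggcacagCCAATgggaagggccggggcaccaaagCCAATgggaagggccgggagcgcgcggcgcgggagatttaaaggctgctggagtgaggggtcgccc
POLE: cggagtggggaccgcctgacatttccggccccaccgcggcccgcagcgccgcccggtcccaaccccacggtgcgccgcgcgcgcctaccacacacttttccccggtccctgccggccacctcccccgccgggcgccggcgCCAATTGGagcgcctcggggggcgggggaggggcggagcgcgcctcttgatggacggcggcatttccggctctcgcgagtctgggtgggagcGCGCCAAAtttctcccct
H2BC12: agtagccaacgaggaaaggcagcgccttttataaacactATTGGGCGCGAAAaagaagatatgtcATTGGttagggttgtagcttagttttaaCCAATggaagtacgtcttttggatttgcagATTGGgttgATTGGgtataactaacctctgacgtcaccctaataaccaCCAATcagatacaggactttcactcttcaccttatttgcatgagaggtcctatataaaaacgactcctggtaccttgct
SERPINH1: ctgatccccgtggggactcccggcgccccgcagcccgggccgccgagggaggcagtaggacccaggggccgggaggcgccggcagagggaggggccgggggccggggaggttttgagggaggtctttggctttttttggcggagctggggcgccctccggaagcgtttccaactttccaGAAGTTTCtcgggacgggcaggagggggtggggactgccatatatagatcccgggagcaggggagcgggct

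In PRC1 the CCAAT box began 53 bases and the cell cycle homology region 20 bases before the start, and in CDK1 150 and 161 bases before the start that RefSeq gives. RRM2 held a CCAAT box at 123, 93 and 66 bases, POLE an E2F site at 18 bases, and H2BC12 had 6 CCAAT matches between 211 and 79 bases. Over all genes, the cell cycle homology region was in 14.5% of promoters of genes that fell, 8.26% of genes that rose and 32.4% of genes that fell at least 2-fold. The E2F letters were in 3.31%, 1.41% and 7.56%. For the C/EBP-ATF element, the cyclic AMP element, the AP-1 site and the heat shock element the shares differed by about 1 percentage point or less between rises and falls. In H2BC12 a CCAAT match lies directly beside an E2F match, so their capitals run together.

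Several Hsp40 genes and the collagen chaperone SERPINH1 rose with both drugs relative to the arrays labelled 17-AAG. DNAJB1 had signals of 480, 564 and 490 with 17-AAG and 874, 885 and 908 with both drugs, a log2 change of 0.80 ± 0.07 (adjusted p = 1.6e-05). DNAJA1, another Hsp40, rose from 1806, 2324 and 1740 to 3649, 3403 and 3630 (0.88 ± 0.10), and DNAJB4 from 178 to 399 in mean signal (1.16 ± 0.10). SERPINH1, the collagen chaperone Hsp47, rose from 142, 121 and 134 to 751, 688 and 729 (2.45 ± 0.09).

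Of 21 Hsp70, Hsp40 and small heat shock genes, 12 rose and 2 fell, or 57.1% and 9.52%, against 25.6% and 22.3% of all 8672 genes. Their median of 0.24 became 0.03 with 6 rises when arrays were centred on their medians. Of the 19 that reached 100 in both groups, 10 rose. HSPA4 and HSPA14 were the members that fell, with log2 changes of -0.35 and -0.54. Of 17 genes of Hsp90 and its co-chaperones, 7 rose and 2 fell (41.2% and 11.8%), or 1 and 3 after centring. On centring, 707 of all genes with signal of 100 or more rose and 2717 fell. CDC37, which brings kinases to Hsp90, rose from 675 to 1029 (0.61 ± 0.07). HSP90AB1, the constitutive Hsp90, rose from 4959, 5911 and 5393 to 7008, 6820 and 6588 (0.33 ± 0.07, adjusted p = 0.0066), a call that was lost on centring. HSP90AA1, the inducible Hsp90, did not pass the test, with signals of 9209, 11305 and 10523 against 11960, 12754 and 11458. HSF1 had mean signals of 217 and 224. Of 23 chaperone and unfolded protein response genes of the endoplasmic reticulum, 2 rose and 8 fell, with a median of -0.09. These are 8.7% and 34.8%, against 25.6% and 22.3% of all 8672 genes. There were 0 rises and 9 falls on centring, beside the 707 and 2717 above. With 1 prior variance for all genes there were 0 and 3. That prior gave 1061 rises and 1018 falls among all genes with signal of 100 or more. SDF2L1, a cofactor of chaperones there, had a log2 change of -0.76. HYOU1, an Hsp70 relative, had one of 0.34, a call lost on centring. HSPA1A and HSPA1B had no probe set of their own and were not measured.

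Among 20 known Hsp90 client kinases and receptors, 6 rose and 5 fell, or 4 and 3 of the 16 that reached 100 in both groups, and 2 and 7 on centring. Without centring, the shares of 30% and 25% are near the 25.6% and 22.3% of all 8672 genes. On centring, 707 of all genes with signal of 100 or more rose and 2717 fell. The receptor kinase MET rose from 86.4, 83.6 and 99.5 to 368, 378 and 304 (1.96 ± 0.12, adjusted p = 6.2e-07), and was not called when the mean of its 4 probe sets was used. WEE1, CHEK1 and FGFR4 were the clients that fell most. These are RNA levels, and loss of a client protein would not be seen in them. FKBP5, a co-chaperone induced by the glucocorticoid receptor, which is itself a client, fell from 379, 474 and 392 to 192, 168 and 182 (-1.19 ± 0.10). Of 7 genes on the glucocorticoid receptor list, which includes the receptor gene NR3C1 (not called) with its targets, 5 fell and none rose. With 1 prior variance for all genes 3 fell.

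Genes of the mitochondrial route of apoptosis, which the study's title names, moved in both directions or did not pass the test. Of 14 pro-apoptotic BCL2 family and mitochondrial release genes, 3 fell and none rose, a share near the 22.3% of all 8672 genes that fell. PMAIP1, the BH3-only protein NOXA, fell from 738, 557 and 701 to 462, 439 and 460 (log2 change -0.54 ± 0.10, adjusted p = 0.0018), a call lost with 1 prior variance for all genes. HTRA2, a mitochondrial protease, had a log2 change of -0.76 and BNIP3, also a hypoxia gene, one of -0.50. The effectors BAX and BAK1 did not pass, with log2 differences of -0.03 ± 0.11 and 0.11 ± 0.12. BCL2L11, the BH3-only protein BIM, had signals of 267, 203 and 354 against 297, 331 and 368 on its brightest probe set, which overlap. The 3 probe sets of BCL2L11 that reached the signal limit had log2 differences from -0.56 to 0.30. The brightest was at 0.30 and did not pass, and 1 other was called lower with both drugs. BCL2L11 is therefore not read as unchanged.

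Of 8 genes on the anti-apoptotic list, 4 rose and 2 fell, or 0 and 2 on centring. The 4 and 2 are 50% and 25%, against 25.6% and 22.3% of all 8672 genes. The list holds BAG1, BAG3 and BAG4 beside BCL2 family genes. BAG1 was among the falls and BAG3, also on the Hsp70 list, among the rises. BAG4 did not pass. MCL1 rose from 778, 633 and 739 to 867, 897 and 921 (0.33 ± 0.08, adjusted p = 0.011) and BCL2 from 156 to 205 in mean signal (0.39 ± 0.10, adjusted p = 0.015). Both calls were lost on centring and when replicate 3 of both drugs was left out, with log2 differences of 0.30 and 0.36. BCL2A1 fell from 2676, 2614 and 2604 to 1512, 1612 and 1698 (-0.71 ± 0.06). BCL2L1 did not pass, at -0.05 ± 0.11.

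Of 13 caspase, apoptosome and inhibitor genes, 3 rose and 3 fell, against 47.9% of all 8672 genes called. BIRC5, survivin, which is also a mitosis gene, fell from 1371, 1544 and 1370 to 406, 435 and 382 (-1.81 ± 0.07). APAF1, the scaffold that activates caspase-9, fell from 215 to 154. PARP1, a repair enzyme cut by caspases, rose from 1368, 1633 and 1281 to 2467, 2351 and 2310 (0.74 ± 0.08), and CASP8, of the death receptor route, rose by 0.53, a call lost on centring. CASP9 did not pass, at 103 and 121. BBC3 had no probe set of its own. CDKN1A, the p53-induced CDK inhibitor, lay below the limit of 100 in both groups, at 66.1 and 50.1. Of 14 p53 targets, 3 rose and 5 fell, or 2 and 4 of the 12 that reached 100 in both groups. Over all 8672 genes, 25.6% rose and 22.3% fell. On centring 2 of 15 rose and 7 fell, and with 1 prior variance for all genes 2 rose and 1 fell.

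**Figure D3:**
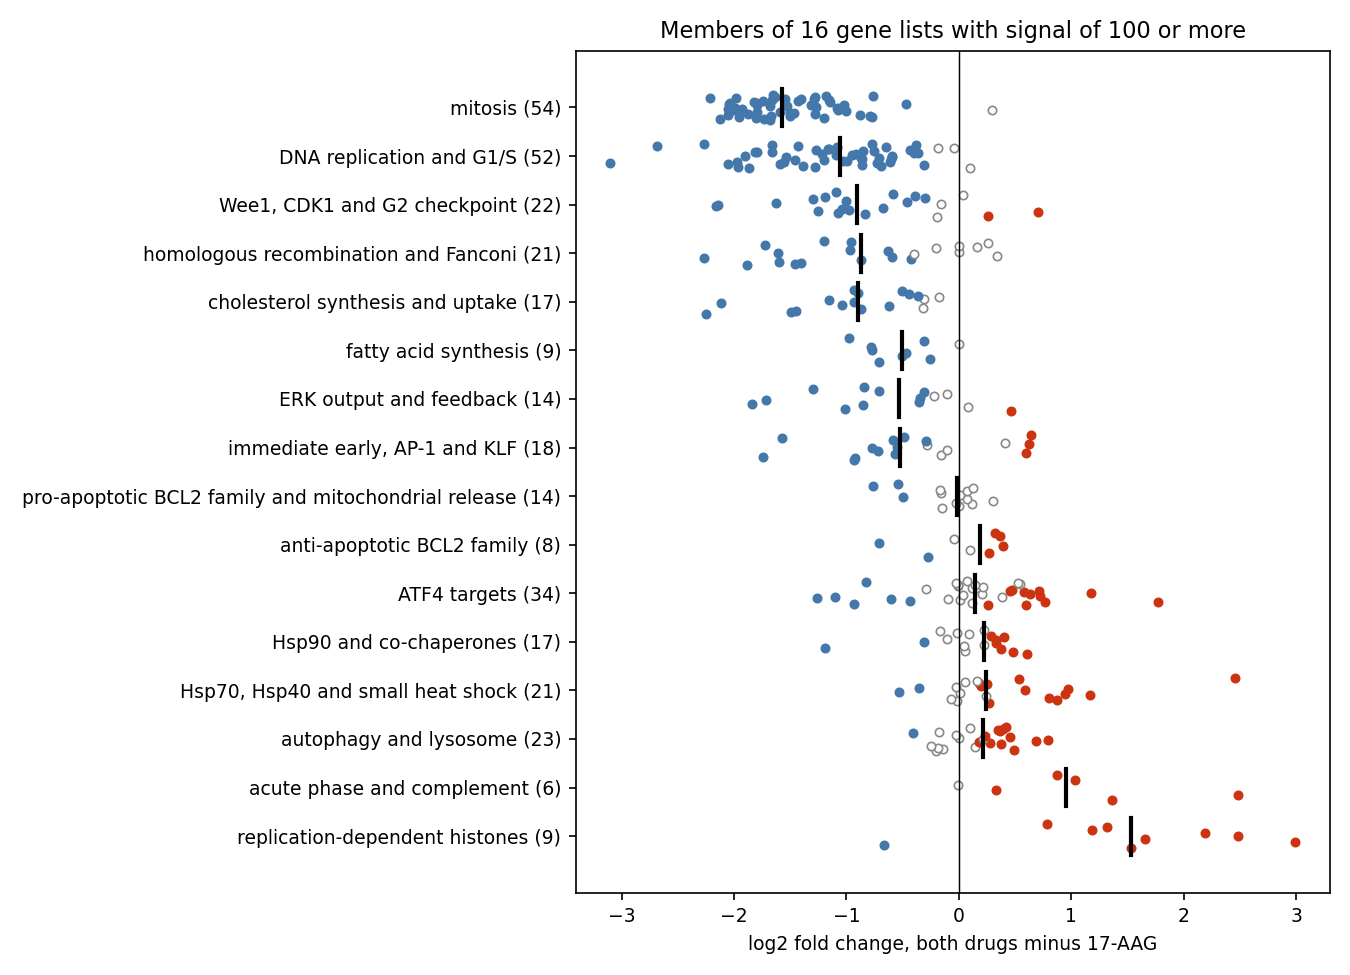
Each point is a member of 1 of 16 gene lists with a signal of 100 or more, placed by its log2 fold change, both drugs minus 17-AAG; filled points passed the test (red higher, blue lower), open points did not, and the black bar is the list's median. The medians run from -1.57 for mitosis to 1.53 for replication-dependent histones. The list labelled anti-apoptotic BCL2 family also holds BAG1, BAG3 and BAG4.

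Cholesterol synthesis genes fell together. Of 17 members, 14 fell and none rose, with a median of -0.90. INSIG1, the sterol sensor that retains SREBP in the endoplasmic reticulum and is itself an SREBP target, fell from 1248, 1476 and 1310 to 301, 319 and 308 (log2 change -2.12 ± 0.08, adjusted p = 2.5e-08). ACAT2, which makes acetoacetyl-CoA, fell from 1022, 1000 and 949 to 201, 234 and 192 (-2.25 ± 0.08), and EBP, a sterol isomerase, fell from 943 to 346. Fatty acid synthesis genes followed, with 8 of 9 lower and none higher. SREBF1, which encodes the SREBP of this branch, fell from 513 to 260.

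Most readouts of ERK signalling and most immediate early genes fell in the fit reported. Of 14 ERK output genes, 10 fell and 1 rose, with a median of -0.53, or 7 and 1 with 1 prior variance for all genes. The ETS factor ETV4 fell from 344, 358 and 429 to 123, 82.9 and 113 (-1.84 ± 0.15), SPRY2, a feedback inhibitor, from 2009 to 817, and the phosphatase DUSP4 from 2778 to 1378. CCND1, cyclin D1, was the riser, from 940 to 1297, a call lost on centring. DUSP6, PHLDA1 and SPRED1 did not pass, with log2 differences of 0.08, -0.22 and -0.11. Of 18 immediate early, AP-1 and KLF genes, 11 fell and 3 rose. The risers were NR4A2 (0.64), KLF2 (0.63) and FOSL2 (0.60), and on centring 2 rises and 12 falls were called. With 1 prior variance for all genes 5 fell and 2 rose, and on the mean of each gene's probe sets 3 of 9 fell and 1 rose. MAFF, a small MAF factor, fell from 8109, 8993 and 8661 to 2812, 2940 and 2917 (-1.57 ± 0.06).

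EGR1 fell from 1584, 806 and 1599 to 363, 402 and 373 (-1.74 ± 0.21, adjusted p = 9.7e-05). Replicate 2 labelled 17-AAG lay well below the other 2 and still above the arrays with both drugs. The same array was also the lowest of its group for the stress genes GDF15 (3436, 1834 and 3366) and DDIT3 (937, 418 and 926). Without it the log2 change of EGR1 was -2.07 and that of GDF15 -1.40, in place of -1.10.

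ATF4 targets, genes of amino acid supply and stress, moved in both directions. Of 34 members, 11 rose and 6 fell, or 10 and 6 of the 32 that reached 100 in both groups. The 34, which include ATF4 itself (not called), gave 32.4% and 17.6%, against 25.6% and 22.3% of all 8672 genes. The list's median of 0.15 became -0.06 on centring, with 5 rises and 6 falls of 33. There were 4 rises and 1 fall with 1 prior variance for all genes. Among those that rose were PCK2, mitochondrial PEP carboxykinase, from 752, 457 and 687 to 1433, 1411 and 1352 (1.18 ± 0.14), PSAT1 from 4897 to 8011 and PHGDH from 1645 to 2462, both of serine synthesis. ATF5 rose from 49.3, 51.2 and 43.2 to 154, 164 and 171 (1.77 ± 0.14), and was not called on the mean of its 4 probe sets. The stress genes DDIT3, which encodes CHOP, GDF15, ATF3 and TRIB3 fell, with log2 changes of -1.26, -1.10, -0.93 and -0.82. Among tRNA synthetases WARS1 rose from 825 to 1935 (1.23 ± 0.10). Of 17 such genes, 6 rose and 2 fell, or 35.3% and 11.8%, against the same 25.6% and 22.3%. There were 1 rise and 3 falls on centring, and 2 and 1 with 1 prior variance for all genes.

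The other 7 genes described from the 12 largest rises had varied roles, and each reached 100 only with both drugs. ATL1, a membrane-shaping GTPase, rose from 26.7, 10.9 and 30.0 to 161, 161 and 171, the largest rise by rank. CEMIP, which degrades hyaluronan, rose from 54.3, 45.6 and 71.0 to 346, 391 and 303 (2.62 ± 0.16). TPM2, a tropomyosin, rose from 67.3 to 324, LTBP2, a matrix protein, from 23.8 to 136, and the arrestin-like ARRDC3 from 69.9 to 327. CCDC92 rose from 24.6 to 114 and the antisense RNA CCDC18-AS1 from 33.1 to 207, the latter not called on the mean of its probe sets.

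C1S, a protease of the first complement component, was also among the 12 largest rises. It rose from 25.5, 34.8 and 33.4 to 162, 183 and 175 (2.49 ± 0.18, adjusted p = 2.1e-06), and its partner C1R by less, from 89 to 230. Of 6 acute phase and complement genes with signal of 100 or more, 5 rose and none fell, but C1S, C1R and NNMT reached 100 only with both drugs, and 2 of the other 3 rose. Of 21 matrix and integrin genes, 9 rose and 3 fell, or 8 and 3 of the 20 that reached 100 in both groups. The 21 gave 42.9% and 14.3%, against 25.6% and 22.3% of all 8672 genes. On centring 5 rose and 4 fell, and with 1 prior variance for all genes 4 rose and none fell. The basement membrane collagens COL4A1 and COL4A2 rose, by 0.87 and 1.28. Of 14 SRF and YAP targets, 8 rose and 1 fell (57.1% and 7.14%), or 6 and 4 on centring. Of the 14, 2 reached 100 only with both drugs, TPM2 and AXL, and 6 of the other 12 rose and 1 fell. LUM, a matrix protein on the fibroblast list, fell from 1700, 1690 and 1819 to 662, 691 and 713.

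The inhibitor's effect with 17-AAG was then set beside its effect without it, from 3 arrays with Wee1 inhibitor II alone and 2 control arrays; the 2 effects share no array. The control array that the submitters removed was left out. On it CTNNA1 had a signal of 1.57 and MLANA 2.67, against at least 2559 and 2865 on the other 11 arrays. Of the 4152 genes called, 3168 (76.3%) differed in the same direction without 17-AAG and 2278 (54.9%) were also called there in that direction. Another 401 of the 4152 (9.66%) were called there in the opposite direction. With the inhibitor alone, 55.4% of all 8672 genes were called, a share that counts both directions. The difference between the 2 effects, an interaction in limma, was called for 3191 of the 8672 genes (36.8%), 1456 above 0 and 1735 below 0. With the removed control array included it was called for 363.

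Mitosis genes differed between the settings. Their median log2 difference was -0.25 without 17-AAG and -1.57 with it, and the interaction was below 0 for 52 of 54 members. CDK1 had mean signals of 3716 in control, 3400 with the inhibitor alone, 4248 with 17-AAG and 962 with both, an interaction of -2.02 ± 0.18 (SE, adjusted p = 1.8e-06). WEE1 had a log2 difference of 0.27 with the inhibitor alone and -1.09 when it was added to 17-AAG. RRM2 had signals of 4666, 2190, 2120 and 330 in the same order. Replication genes had a median of -0.56 without 17-AAG, and 28 of 52 had an interaction below 0.

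For histone genes the 2 effects lay closer together. H2BC12 had signals of 315, 1640, 433 and 2416 in the same order, with an interaction of 0.10 ± 0.11 (adjusted p = 0.64), and 1 of 9 histone genes had an interaction that passed. The interval is narrow beside the change of 2.48, whereas that of H2BC21 is wide, at -0.77 ± 0.38. ATF4 targets were higher by a median of 1.29 with the inhibitor alone and by 0.15 when it was added to 17-AAG, with 24 of 34 interactions below 0.

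Some genes turned direction. EGR1 had signals of 155, 816, 1269 and 379, so that it was higher with either drug alone than in control and lower with both than with 17-AAG. INSIG1 had signals of 306, 374, 1342 and 309, so that with both drugs it was at the level of the control arrays. PMAIP1 was higher by 0.88 with the inhibitor alone and fell by 0.54 when it was added to 17-AAG. In the other direction, DNAJB1 and HSPH1 had log2 differences of -0.72 and -1.09 with the inhibitor alone and rose when it was added to 17-AAG, and 13 of 21 Hsp70, Hsp40 and small heat shock genes had an interaction above 0. These comparisons include the control and 17-AAG groups whose heat shock levels went against their labels.

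**Figure D4:**
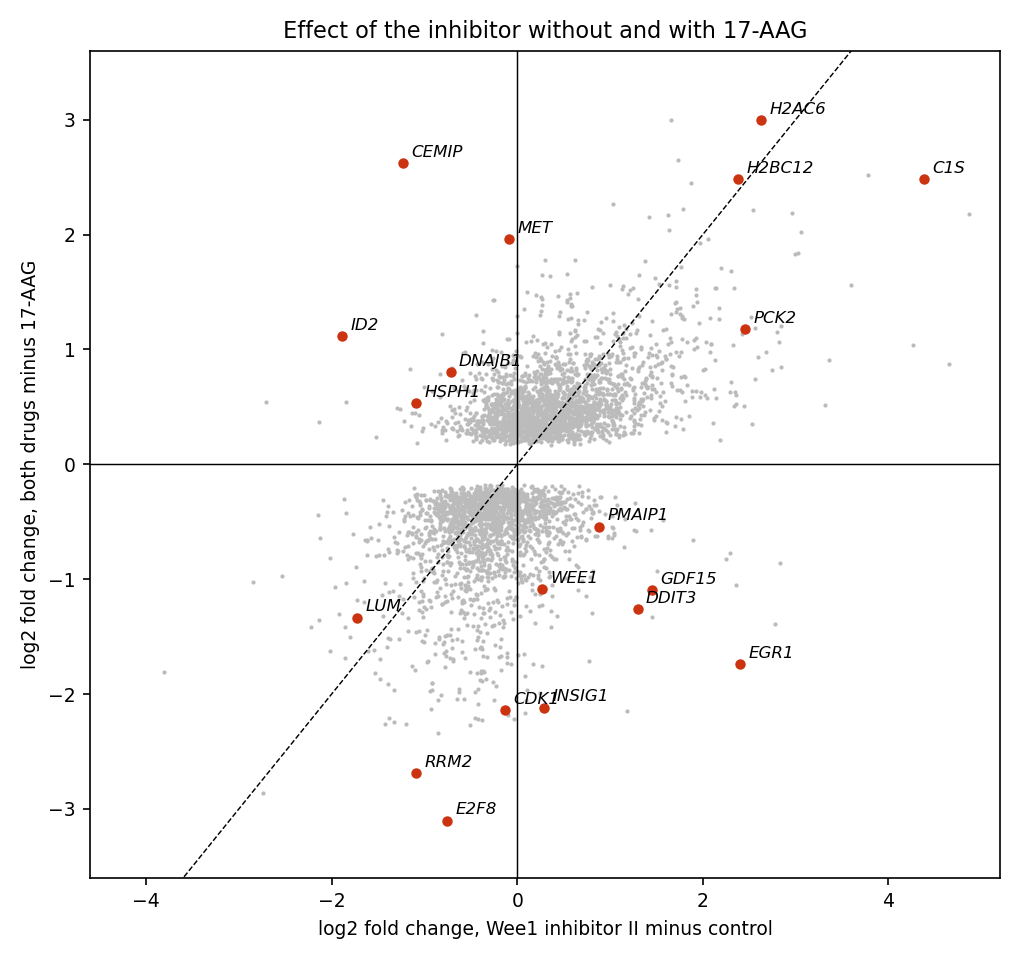
Each grey point is 1 of the 4152 genes called; the horizontal axis is the log2 fold change of Wee1 inhibitor II over control and the vertical axis that of both drugs over 17-AAG. On the dashed line the 2 effects are equal; H2BC12 lies on it, CDK1 and INSIG1 lie far below it near a horizontal value of 0, and CEMIP and ID2 lie above 0 on the vertical axis and below 0 on the horizontal.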

How the data were processed

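Per the labels' protocols, 100 ng of RNA a sample was biotin labelled with a kit of the 3-prime kind and measured on Affymetrix arrays. The authors deposited 1 intensity value per probe set and array; per the submitters' processing notes, Partek 6.5 and RMA were used, and the order of steps is not given in the sources used here. The deposited intensity values are linear (the 2% trimmed mean is 150 for each array) and do not have the log2 scale or equal distributions of RMA output. They were log2 transformed here with no further normalisation. No detection calls were used. The number of arrays, 3 a group, limits the precision.

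The 54675 probe sets included 62 array controls; a single gene symbol was given for 41091, several for 1801 and none for 11721. Each gene was read from its brightest probe set, which left 19775 genes; of 1712 called genes with several probe sets of signal 100 or more, 85 had 1 called in the opposite direction. Group signals are geometric means. The 6 arrays were fitted in R 4.3.3 by limma 3.58.1, using a prior variance that follows signal and Benjamini-Hochberg adjustment over all genes, and errors of log2 changes are its standard errors. The interaction used 11 arrays in the same way. The code was tested on simulated data.

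The gene lists (36, with 778 of 856 symbols measured), the limit of 100 and the tests were chosen with earlier results of these data known. Genes named are the 12 largest rises and falls among genes that passed the test with no overlap between groups, at most 4 genes of each list, by lowest p, and a fixed set of drug target, cell cycle and apoptosis genes. The other list members, and LUM, were picked as examples after their values were seen. Alternatives covered the prior, the scaling, the choice of probe set, the signal limit, the threshold, the replicate number as a block and each array left out.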

Additional observations from a re-analysis of the deposited data

Results flagged for a closer look

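The effect of the Wee1 inhibitor differed with and without 17-AAG, by the interaction test in limma, for 3191 genes with a signal of 100 or more. Below 0, meaning that the log2 effect was lower with 17-AAG, were E2F8 (-2.35), RRM2 (-1.59), CENPM (-1.49), TYMS (-1.76), MYBL2 (-0.84), EXO1 (-1.07), NEIL3 (-1.80), DIAPH3 (-2.18), PBK (-1.75) and CDKN3 (-1.85). The same held for WEE1 (-1.36), CDK1 (-2.02) and CCNB1 (-0.91), and for ACAT2 (-0.92). The CDK inhibitor CDKN1A (-1.59) was also below 0, but it lay under a signal of 100 in both groups and is not among the 3191. PMAIP1 (-1.42), MCL1 (-0.48) and C1S (-1.90) were also below 0. C1S was higher with the inhibitor in both settings, and by more without 17-AAG. Above 0 were CEMIP (3.86), DNAJB1 (1.52), TPM2 (1.24), CCDC18-AS1 (0.92), SERPINH1 (0.58) and HSP90AB1 (0.37). The test rests on 2 control arrays.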

How the results depend on the processing

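The alternatives were run on the 4152 calls, the counts and medians of the lists and the 156 named genes. With 1 prior variance for all genes, 1061 genes rose and 1018 fell (2079 in all, 2652 among all genes and 2011 interactions), of which 2078 were also called in the same direction in the fit reported. Centring each array on its median gave 707 rises, with 2717 falls. Averaging the probe sets of each gene gave 1335 rises and 1118 falls (2453, and 3169 among all genes), and turned CCNB2 (0.40), CFLAR (0.30), SARS1 (-0.25), HK2 (0.12) and LAMA4 (-0.27), with the cause not tested. Every probe set on its own gave 7622 calls among all measured, and an adjusted p under 0.01 gave 3143 among all genes. A change of at least 2-fold kept 185 rises and 292 falls (477, or 916 among all genes), with 10 falls in the Wee1 and G2 list, 27 in the replication list and 6 in the cholesterol list. With a signal of 100 or more asked of both groups, 3 histone genes rose. With control replicate 2, 363 interactions were called. Leaving out 1 array at a time gave 3385 to 4020 calls and 2609 to 3334 interactions. The replicate numbers did not pair the samples (r of deviations -0.03, 0.01 and 0.02), and with the replicate block 4088 genes were called. Of 148 named genes called, 58 were called in the same direction under every alternative run, the 2-fold one included. Of the list counts 624 of 756 and of the list medians 656 of 756 stayed close. Below a signal of 100 the spread between replicates limits what could be called.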

Other observations

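Several lists outside those above moved little or in parts. Of 23 autophagy and lysosome genes, 12 rose and 1 fell, or 11 and 1 of the 22 that reached 100 in both groups. The 23 gave 52.2% and 4.35%, against 25.6% and 22.3% of all 8672 genes. Their median of 0.21 became -0.01 with 2 rises when arrays were centred on their medians. The proteases CTSL and CTSD, at 641 and 627 with 17-AAG and 1111 and 1007 with both drugs, were the largest rises. Cytosolic ribosomal proteins rose in 22 of 35 cases by at most 0.42, and in 5 cases with quantile normalisation and 0 with centring. Of 27 proteasome genes, 3 rose and 6 fell, all by less than 0.3, against 25.6% and 22.3% of all 8672 genes. None passed in either direction with 1 prior variance for all genes. None of 6 metallothionein genes passed the test in either direction, although their median with the inhibitor alone was 1.13 above control.

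Of 21 interferon response genes, 7 rose and 3 fell, or 5 and 2 of the 18 that reached 100 in both groups. The 21 gave 33.3% and 14.3%, against 25.6% and 22.3% of all 8672 genes. The 3 falls were not called with 1 prior variance for all genes. IFIT3 went from 405 to 674 and IFITM2 from 462 to 823. Of 31 hypoxia and glycolysis genes, 11 fell and 3 rose, or 10 and 3 of the 30 that reached 100 in both groups. The 31 gave 35.5% falls and 9.68% rises, against 22.3% and 25.6% of all 8672 genes. With 1 prior variance for all genes 8 fell and 1 rose. The falls were led by PDK1, which restrains pyruvate entry into mitochondria, from 563 to 247. PDK4, a related kinase, fell from 203 to 61. ID2, an inhibitor of differentiation factors, rose from 460, 394 and 346 to 862, 863 and 856, with a control level of 1580 and 427 with the inhibitor alone.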
